A study of Mus musculus with 6 samples.

Results

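Genes of the proteasome, the protease complex that degrades ubiquitin-tagged proteins, were examined in mouse BCR-ABL+ B-ALL cells (B-cell acute lymphoblastic leukaemia driven by the BCR-ABL tyrosine kinase fusion). The members were all genes whose single annotated symbol begins with Psma, Psmb, Psmc, Psmd, Psme or Psmg followed by a digit, and the brightest probe set over the 6 arrays stood for each gene. This gave 48 of the 22180 genes on the array. Psmc3ip and Psme3ip1 carry such names but encode proteins that are not subunits, so 46 genes were described as subunits, activators or assembly chaperones. Psma4 was not taken because its 2 probe sets carry a second symbol.

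The DHA group (3 arrays) received 312 nM of dihydroartemisinin for 4 h, and the DMSO group (3 arrays) received its solvent alone. Dihydroartemisinin is an antimalarial drug to which some artemisinin derivatives are converted in the body. All cells carried the BCR-ABL fusion and were grown in culture medium. The growth protocol covers p185+ and p185T315I+ cells lacking Arf or p53, p185 being a form of the BCR-ABL protein and T315I a kinase inhibitor resistance mutation, and the line used for the arrays is not named in the labels. The extraction protocol names 2 h and 4 h whereas the treatment protocol names 4 h. The titles of all 3 DHA arrays also name 4 h, and those of the DMSO arrays name no time. Codes in the titles begin with 2 on 3 arrays (DMSO replicates 1 and 2 and DHA replicate 1) and with 4 on the others, without explanation. Nothing in the labels tells whether the arrays of a group stem from separate cultures. P-values therefore reflect the spread among these 6 samples, and that spread may be technical.

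The proteasome consists of a barrel-shaped core, in which rings of alpha subunits gate the entrance and rings of beta subunits hold the proteolytic sites, and of caps that bind its ends. The main cap recognises ubiquitin chains, removes them with its lid and unfolds proteins with a ring of ATPases in its base. Lymphoid cells also make the immunoproteasome, in which Psmb8, Psmb9 and Psmb10 replace the constitutive catalytic subunits and alter the peptides available to MHC class I. When proteasome capacity falls short, the transcription factor NRF1 (encoded by Nfe2l1) is known to raise the transcription of subunit genes as a set.

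No proteasome gene passed the test for a difference between DHA and DMSO. Of the 46, 45 lay above the filter on dim genes and were tested with limma, a linear model with moderated variances. At an adjusted p at or under 0.05 it called 0 of them, where 0.0902% of all 15526 tested genes were called (0.00644% lower and 0.0837% higher). At an unadjusted p under 0.05 limma also gave 0 members, where 12% of all tested genes passed (6.08% lower and 5.94% higher). The smallest adjusted p among members was 0.467. In simulations of this comparison, limma recovered 3% of differences of 0.2 and 0% of 0.1, so it could seldom call changes that small. For comparison, Ddit3, which encodes the stress transcription factor CHOP, had the smallest p of all tested genes. It stood at 7.62, 7.46 and 7.36 on the DMSO arrays and 10.13, 9.56 and 10.19 on the DHA arrays (log2 intensity). As the top gene of these same arrays, Ddit3 is no independent check that the cells had responded.

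The differences that were measured were small and mostly negative. Levels are log2 intensities, and differences are DHA minus DMSO on that scale. The mean was lower with DHA in 33 of the 45 tested genes (73.3%), against 48.8% of all tested genes, and the median difference was -0.04, against 0.0027 over all tested genes. Among brighter genes only, with the filter at the 50th percentile, 76.7% of members and 52.1% of all tested genes had a lower mean. The medians there were -0.043 and -0.0055. Over the 45 genes, differences ran from -0.22 for Psmd6 to 0.11 for Psma5, and their standard errors (SE) had a median of 0.061. The 95% intervals of the 45 genes all lay between -0.50 and 0.38, that is between a 0.708-fold and a 1.30-fold level. In these bulk cultures, less RNA per cell and fewer cells of a kind cannot be told apart.

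**Figure D1:**
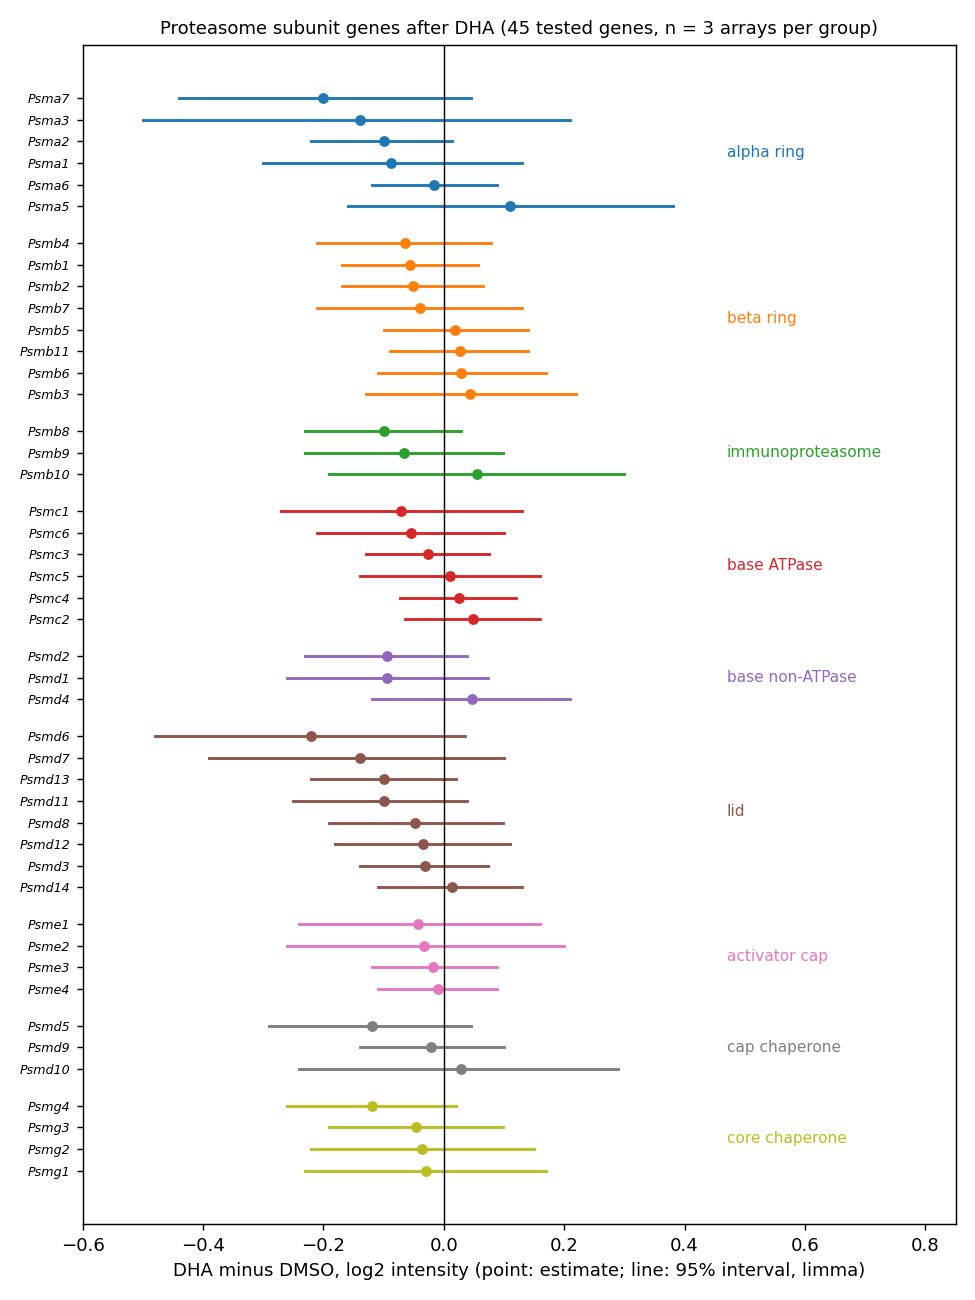
Difference between DHA and DMSO (log2 intensity, horizontal axis) for each of the 45 tested proteasome genes, grouped by their place in the complex. Points are limma estimates and lines are 95% intervals (n = 3 arrays per group). Every interval includes 0, and the points lie between -0.22 and 0.11.

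Groups were separate, with every DHA array below every DMSO array, in 5 of the 45 genes (11.1%), where 8.19% of all tested genes were separate in that direction. Separation with DHA higher occurred in 0 members and 7.64% of all tested genes. The 5 genes were Psma2, Psma7, Psmb1, Psmd11 and Psmd13, of which Psma2, Psma7 and Psmb1 belong to the core and Psmd11 and Psmd13 to the lid of the cap.

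Part of the lower mean lay on a single vehicle array. DMSO replicate 2 was the highest of the 6 arrays in 20 of the 45 genes (44.4%), against 19.4% of all tested genes. DMSO replicates 1 and 3 were the highest in 24.4% and 11.1% of members, against 17.9% and 15%. DHA replicates 1 to 3 were the highest in 4.44%, 4.44% and 11.1%, against 17%, 12.5% and 18.2% of all tested genes. They were the lowest in 11.1%, 24.4% and 28.9% of members, against 15.5%, 16.1% and 14.5%. Relative to each gene's mean over the arrays, the median member stood at 0.0086, 0.052 and -0.0038 on the DMSO arrays and at 0.0054, -0.011 and -0.021 on the DHA arrays. Without DMSO replicate 2 the median difference was -0.012, and 30 of 45 genes (66.7%) had a lower mean, against 49.4% of all tested genes. Over all tested genes that array was the highest in 19.4% and the lowest in 20.6%, and its median intensity of 5.26 lay within the range of the arrays (5.25 to 5.31).

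**Figure D2:**
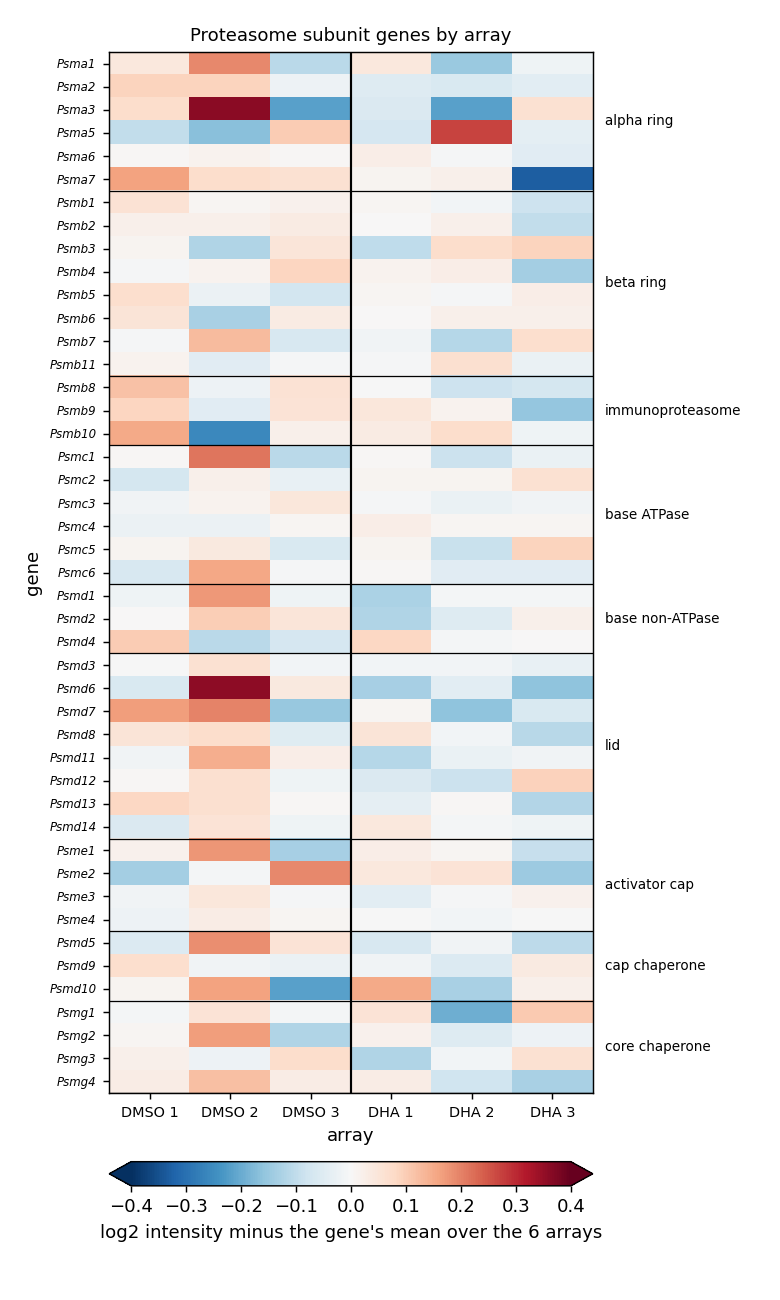
Level of each of the 45 tested genes on each array, as log2 intensity minus the gene's mean over the 6 arrays (colour, clipped at 0.4 in either direction), with DMSO arrays left and DHA arrays right of the vertical line. DMSO replicate 2 is the highest array in 20 of the 45 rows, many of them in the cap and the chaperones.

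In the alpha ring, which forms the gate of the core, 5 of 6 tested genes had a lower mean and the median difference was -0.095. Psma7 measured 9.71, 9.62 and 9.61 with DMSO and 9.56, 9.57 and 9.22 with DHA. The groups did not overlap, but DHA replicate 3 stood well below the other DHA arrays. The difference was -0.20 (SE 0.10, limma adjusted p = 0.501), and -0.08 without that array. Psma2 measured 10.03, 10.03 and 9.92 against 9.89, 9.88 and 9.90, again without overlap, and differed by -0.10 (SE 0.049; limma adjusted p = 0.467, the smallest of all members). Psma5 was dim, at 4.64, 4.57 and 4.84 with DMSO and 4.67, 5.01 and 4.70 with DHA, and differed by 0.11 (SE 0.11). That difference rested on DHA replicate 2, without which it was 0.0034. A dimmer second probe set of Psma5 differed in the other direction, from 4.16 ± 0.082 to 3.89 ± 0.055 (SD, n = 3).

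Psma1, Psma3 and Psma6 differed by -0.087, -0.14 and -0.016 with overlapping groups. Psma3 spread most among the vehicle arrays, at 11.07, 11.36 and 10.78. Without DMSO replicate 2 the median of the alpha ring was -0.010, without DMSO replicate 3 it was -0.15 and without DHA replicate 2 it was -0.052. Psma8, an alternative subunit of germ cells, lay under the filter at 4.12 ± 0.063 with DMSO and 4.03 ± 0.06 with DHA (SD, n = 3) and was not tested. The brighter of the Psma4 probe sets shared with AY074887, which is no member, read 9.45 ± 0.047 and 9.34 ± 0.03.

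In the beta ring as planned, with Psmb11, 4 of 8 genes had a lower and 4 a higher mean, with a median difference of -0.011. In the constitutive beta ring, without Psmb11, 4 of 7 genes had a lower and 3 a higher mean, with a median difference of -0.04. The 3 catalytic subunit genes overlapped between the groups. Psmb5, whose product cuts after hydrophobic residues and is the main site hit by bortezomib, measured 12.17, 12.08 and 12.03 with DMSO and 12.11, 12.10 and 12.13 with DHA, so that the DHA values lay inside the range of the vehicle (0.019, SE 0.051; 95% interval -0.10 to 0.14). Psmb6, the caspase-like subunit, measured 9.39, 9.21 and 9.37 against 9.34, 9.36 and 9.36, also inside that range (0.029, SE 0.06). Psmb7, the trypsin-like subunit, measured 10.28, 10.41 and 10.22 against 10.27, 10.17 and 10.35 (-0.04, SE 0.072), and its groups overlapped.

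Of the non-catalytic beta subunits, Psmb1 measured 10.28, 10.23 and 10.24 with DMSO and 10.23, 10.21 and 10.14 with DHA. Its groups were separate by less than the rounding of these values, and the difference was -0.056 (limma adjusted p = 0.686), or -0.028 without DHA replicate 3. Psmb2 differed by -0.051 and Psmb4 by -0.064. For both, DHA replicate 3 was the lowest array, at 10.80 and 10.55, whereas the vehicle ranged from 10.92 to 10.93 for Psmb2 and from 10.68 to 10.77 for Psmb4. Psmb3 differed by 0.043. The thymus-specific catalytic subunit gene Psmb11, a counterpart of Psmb5 outside the constitutive ring, was dim at 5.0 ± 0.033 with DMSO and 5.03 ± 0.051 with DHA (SD, n = 3), a difference of 0.027.

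Of the 3 immunoproteasome genes, 2 had a lower and 1 a higher mean with DHA. Psmb8, the counterpart of Psmb5, measured 10.00, 9.86 and 9.94 with DMSO and 9.88, 9.80 and 9.81 with DHA. Its DHA arrays were low apart from an overlap between DHA replicate 1 and DMSO replicate 2, and the difference was -0.10 (SE 0.054; limma adjusted p = 0.517). Psmb9, the counterpart of Psmb6, measured 8.62, 8.49 and 8.59 against 8.58, 8.55 and 8.38 (-0.066, SE 0.069). Without DHA replicate 3, its lowest array, the difference was -0.0045.

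Psmb10, the counterpart of Psmb7, measured 10.36, 9.95 and 10.23 against 10.24, 10.28 and 10.19. The DHA values lay inside the wide vehicle range, with a difference of 0.055 (SE 0.10; 95% interval -0.19 to 0.30) that became -0.059 without DMSO replicate 2. The median difference of the 3 immunoproteasome genes was -0.066, and it ranged from -0.11 to -0.0045 on leaving out an array (-0.0045 without DHA replicate 3). That of the 7 constitutive beta genes, -0.04, ranged from -0.043 to 0.008, was -0.015 without DHA replicate 3 and turned sign without DHA replicate 2. With Psmb11 the beta median was -0.011 and ranged from -0.024 to 0.0028. These ranges overlap, and the difference between the medians was not tested.

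**Figure D3:**
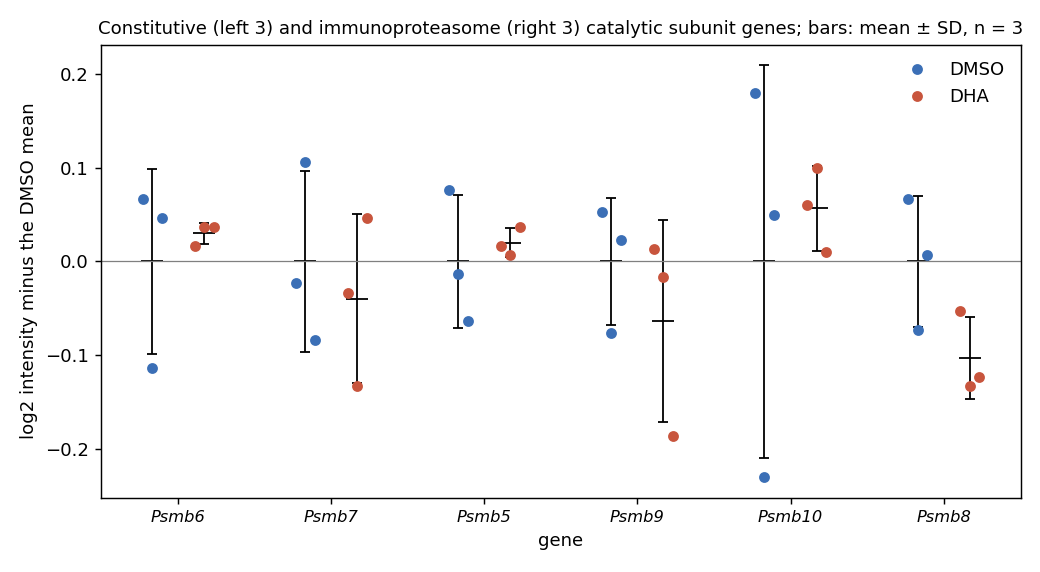
The 3 constitutive catalytic subunit genes (left) and their 3 immunoproteasome counterparts (right), as log2 intensity minus the mean of the DMSO arrays. Dots are single arrays and bars are the mean ± SD (n = 3). DMSO and DHA dots overlap for all 6 genes, and Psmb10 spreads most among the DMSO arrays.

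Among the 6 ATPases that form the unfolding ring of the cap, 3 were lower and 3 higher with DHA, with a median difference of -0.0088. Psmc2 measured 8.87, 8.96 and 8.91 with DMSO and 8.95, 8.95 and 9.0 with DHA (0.049, SE 0.048). Its groups overlapped. Psmc1 (-0.072, SE 0.085) and Psmc6 (-0.054, SE 0.066) were highest on DMSO replicate 2, at 10.44 and 10.62, and without it they differed by 0.015 and 0.0083. Psmc4 had the smallest error of all members (0.026, SE 0.041; 95% interval -0.073 to 0.12). Psmc3 and Psmc5 differed by -0.027 and 0.0096.

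The large scaffold subunits of the base, Psmd1 and Psmd2, had lower means with DHA by similar amounts. Psmd1 measured 10.89, 11.08 and 10.89 with DMSO and 10.78, 10.90 and 10.90 with DHA (-0.094, SE 0.07). Psmd2 measured 10.81, 10.91 and 10.86 against 10.69, 10.76 and 10.83 (-0.095, SE 0.056; limma adjusted p = 0.55). Groups overlapped for both, and without DMSO replicate 2 the Psmd1 difference was -0.031. Psmd4, a ubiquitin receptor, measured 8.66, 8.45 and 8.49 against 8.64, 8.55 and 8.56 (0.046, SE 0.068).

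In the lid, which removes ubiquitin chains and clamps the base to the core, 7 of 8 members had a lower mean. The median difference of the 8 was -0.075, or -0.042 without DMSO replicate 2. Sem1, a lid subunit outside the naming rule, differed by -0.24 and is described below with the other subunits. The scaffold gene Psmd6 had the lowest difference of all members. It measured 9.80, 10.22 and 9.90 with DMSO and 9.73, 9.82 and 9.70 with DHA, a difference of -0.22 (SE 0.11; 95% interval -0.48 to 0.035; limma adjusted p = 0.478). DMSO replicate 2 stood apart at 10.22 and without it the difference was -0.10. Psmd13 measured 8.19, 8.17 and 8.11 against 8.07, 8.11 and 7.99, and Psmd11 measured 10.10, 10.26 and 10.14 against 10.00, 10.09 and 10.10. Both differed by -0.10 with DHA below DMSO on every array, by margins within the rounding of these values at the nearest pair (limma adjusted p = 0.496 and 0.538). Psmd11 stood at -0.059 without DMSO replicate 2.

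Psmd7 differed by -0.14 (SE 0.10) with overlapping groups. Psmd14, the deubiquitinase of the lid, measured 10.24, 10.35 and 10.28 against 10.34, 10.29 and 10.28, a difference of 0.013 (SE 0.05). Psmd3, Psmd8 and Psmd12 lay between -0.048 and -0.032.

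The activator caps open the core without ATP, and the differences of their 4 genes lay between -0.043 and -0.01. Psme1 and Psme2, the interferon-inducible pair that favours peptide release, measured 10.27, 10.43 and 10.12 against 10.28, 10.26 and 10.16 for Psme1 (-0.043, SE 0.085) and 7.67, 7.80 and 8.0 against 7.85, 7.86 and 7.66 for Psme2 (-0.033, SE 0.097). Psme3, their nuclear relative, measured 9.97, 10.03 and 9.98 against 9.94, 9.98 and 10.00 (-0.018, SE 0.045). For Psme4, which encodes the activator PA200, the difference was -0.01 (95% interval -0.11 to 0.089). DMSO and DHA groups overlapped in all 4. A probe set that names Psme2 with 2 other genes, outside the rule, read 8.35 ± 0.21 and 8.43 ± 0.22 (SD, n = 3).

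Of the assembly chaperones, 6 of 7 had a lower mean, with a median difference of -0.037, and groups overlapped in all 7. Psmd5, which holds ATPase subunits before the cap is complete, measured 9.79, 10.03 and 9.90 with DMSO and 9.78, 9.83 and 9.74 with DHA (-0.12, SE 0.071; limma adjusted p = 0.536). The difference was -0.061 without DMSO replicate 2. Psmd9 measured 7.42, 7.34 and 7.33 against 7.34, 7.30 and 7.39 (-0.021, SE 0.051). Psmd10, also known as the oncoprotein gankyrin, measured 9.67, 9.82 and 9.44 against 9.81, 9.53 and 9.68 (0.028, SE 0.11).

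The chaperones of the core are encoded by Psmg1 to Psmg4. Psmg4 measured 7.28, 7.37 and 7.28 against 7.28, 7.17 and 7.12 (-0.12, SE 0.059; limma adjusted p = 0.483). DHA replicate 1 was level with DMSO replicates 1 and 3, and the other DHA arrays were lower. Psmg3 measured 7.06, 7.02 and 7.11 against 6.92, 7.03 and 7.10 (-0.046, SE 0.061), and Psmg2 measured 9.64, 9.80 and 9.51 against 9.65, 9.58 and 9.61 (-0.037, SE 0.079). Psmg1 differed by -0.03, with DHA replicate 2 lowest at 8.47. Outside the complex, the name-alike genes Psmc3ip and Psme3ip1 differed by 0.041 and 0.088.

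Genes around the proteasome were counted from 4 lists, in which limma called 0 genes in either direction (37 tested of 48 listed; at an unadjusted p under 0.05, 4 were higher and 6 lower, where 5.94% of all tested genes were higher and 6.08% lower). The NRF1 list held the largest differences. Nfe2l1 itself measured 8.65, 8.61 and 8.67 with DMSO and 9.20, 8.92 and 9.10 with DHA. All DHA arrays were above all DMSO arrays, and the difference was 0.43 (SE 0.076; 95% interval 0.25 to 0.61), yet it missed the threshold over all genes (limma adjusted p = 0.12, and 0.0692 to 0.338 over the alternatives). Ufd1, a cofactor of the segregase p97 that extracts proteins from the endoplasmic reticulum, measured 8.74, 8.84 and 8.93 against 9.07, 9.20 and 9.10, without overlap (0.29, SE 0.066; limma adjusted p = 0.172). The 9 tested genes of this list had a median difference of -0.0084, with 3 higher and 1 lower at an unadjusted p under 0.05.

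Among 11 other subunits and bound factors, 0 were higher and 2 lower at an unadjusted p under 0.05, with a median of 0.0045. Sem1, the smallest lid subunit, measured 9.04, 9.19 and 8.95 with DMSO and 8.86, 8.75 and 8.84 with DHA (-0.24, SE 0.072; limma adjusted p = 0.269). Ube3c, a ubiquitin ligase that binds the proteasome, measured 9.33, 9.43 and 9.35 against 9.14, 9.23 and 9.17 (-0.19, SE 0.052; limma adjusted p = 0.242). Groups were separate for both.

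For ubiquitin supply and shuttles, 6 of 12 listed genes were tested, and no gene encoding ubiquitin itself was among them. The counts were 0 higher and 2 lower of these 6, with a median of -0.046. Uba6, an activating enzyme for ubiquitin, measured 10.02, 10.14 and 9.97 against 9.79, 9.77 and 9.85 (-0.24, SE 0.058; limma adjusted p = 0.198). The shuttle gene Ubqln2 measured 8.95, 8.92 and 8.91 against 8.68, 8.59 and 8.90 (-0.20, SE 0.082), with DHA replicate 3 close to the vehicle.

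The MHC class I list, which takes up the peptides made by the immunoproteasome, had 1 higher and 1 lower of 11 and a median of -0.02. The chaperone gene Calr measured 12.28, 12.36 and 12.23 with DMSO and 12.06, 12.17 and 12.13 with DHA (-0.17, SE 0.055; limma adjusted p = 0.31). Irf1, a transcription factor that acts on immunoproteasome genes, measured 7.39, 7.31 and 7.45 against 7.66, 7.45 and 7.69 (0.21, SE 0.077; limma adjusted p = 0.35).

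**Figure D4:**
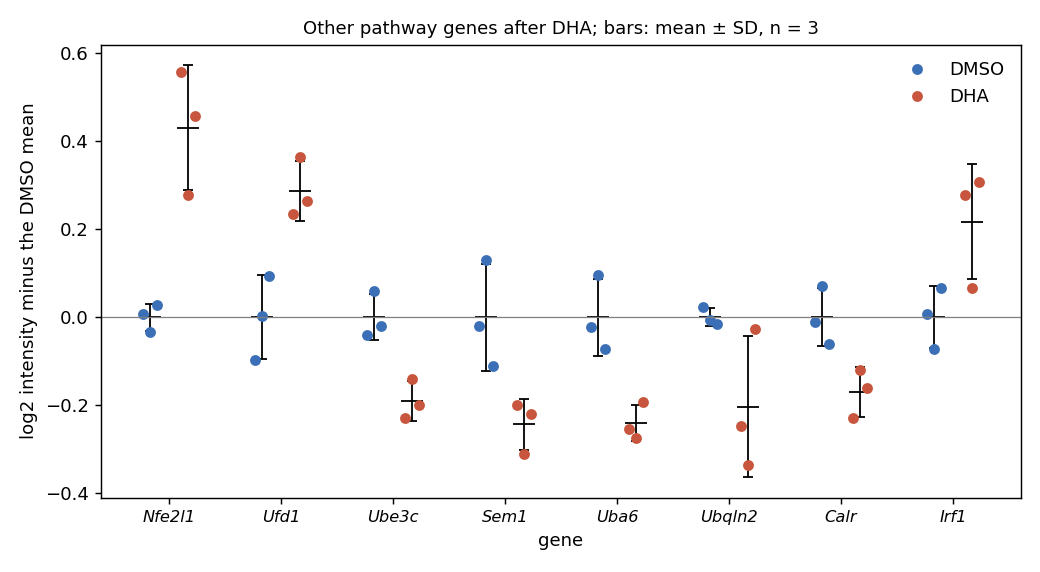
The 2 genes with the smallest p in each of the 4 lists around the proteasome, as log2 intensity minus the mean of the DMSO arrays. Dots are single arrays and bars are the mean ± SD (n = 3). Nfe2l1 and Ufd1 are higher on all DHA arrays, and none of the 8 genes passed the test over all genes.

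NRF1 and its relative NRF2 bind antioxidant response elements, so the promoters of the members were searched for the core of that element, TGACNNNGC on either strand. RefSeq promoters (GRCm38.p6, 250 bases before to 50 after a start) were at hand for 38 of the 46 genes, and 6 of the 38 held the motif (15.8%), against 14% of all 27025 genes with a promoter there. The 6 matches are shown to set the sequence beside the lack of a called change, with the motif in capitals, 5′ to 3′ on the strand of the gene. A capital run that begins with GC holds the motif on the opposite strand.
Psmb5 (chr14:54618026-54618050, minus strand): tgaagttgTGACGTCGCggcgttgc
Psmb6 (chr11:70525340-70525364, plus strand): aaagagagTGACGGAGCgctttacg
Psmc6 (chr14:45329589-45329613, plus strand): agccagtaGCTAAGTCAggcattgc
Psmd9 (chr5:123228151-123228175, plus strand): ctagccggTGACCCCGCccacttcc
Psmd12 (chr11:107479278-107479297, plus strand): tctGCTGTGTCAcatttgcc
Psme4 (chr11:30771760-30771784, plus strand): ctgcggctGCAGCGTCAccagaaga
The differences of these 6 genes between DHA and DMSO lay between -0.054 and 0.029. Of the other motifs searched on either strand, a pair of GAAA half-sites spaced by 2 bases, as in interferon-stimulated response elements, was in 5 of the 38 (13.2%, against 3.99% of all genes), namely Psmb3, Psmd4, Psmd9, Psme1 and Psmg4, and CCAAT, the NF-Y box, was in 14 (36.8%, against 41.1%). A match describes the letters in this window, not a bound site.

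Markers of the labelled cell type were bright. The 14 B-cell precursor markers with a single-gene probe set had mean levels from 4.78 (Vpreb1) to 12.98 (Igll1), and their summed level on the log2 scale was 15.27 to 15.33 with DMSO and 15.24 to 15.30 with DHA. That sum is set by the brightest genes. By mean, 7 of the 14 were lower and 7 higher with DHA, with a median difference of 0.0048. At an unadjusted p under 0.05, limma gave 3 lower and 0 higher, where 6.08% and 5.94% of all tested genes passed. It called 0 of the 14. Rag2 (-0.53, limma adjusted p = 0.253), Cd24a (-0.16, adjusted p = 0.32) and Igll1 (-0.12, adjusted p = 0.363) were each below DMSO on every DHA array. Ebf1 (0.13, limma adjusted p = 0.416) was above DMSO on every DHA array. Summed levels of other cell types were 8.67 to 8.73 and 8.71 to 8.74 for 14 T and NK cell markers, and 9.07 to 9.30 and 9.11 to 9.16 for 15 myeloid markers. For 8 erythroid and megakaryocyte markers they were 8.27 to 8.30 and 8.32 to 8.36, and for 12 stromal markers 9.93 to 9.99 and 10.07 to 10.10. The last 2 ranges were separate between the groups, and the brightest stromal marker was Pecam1, a gene of endothelial cells and leukocytes (9.37, 9.29 and 9.35 against 9.50, 9.50 and 9.56). The erythroid and megakaryocyte markers were dim, with mean levels from 4.25 to 5.85 beside the filter at 4.52. All 7 that were tested had a higher mean with DHA, and 0 passed an unadjusted p under 0.05 by limma. The part of any of these markers in the differences of the proteasome genes was not tested.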

How the data were processed

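Each array has 1 log2 intensity per probe set, which the authors summarised by RMA (robust multi-array averaging) and handled in Partek 6.6, per the submitters' processing notes. Their settings are not named there. Of 41345 probe sets, 23521 had 1 gene symbol in the platform annotation, 1814 several and 16010 were unnamed here; 23328 of the former were matched to RefSeq by Entrez identifier. The test left out genes whose mean lay below the 30th percentile (4.52).

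DHA was compared with DMSO by limma 3.58.1 in R 4.3.3 (default empirical Bayes moderation, two-sided, Benjamini-Hochberg over all 15526 genes, 4 residual and 2.77 prior degrees of freedom). Replicate numbers follow accession order and only name samples. RMA tends to understate differences of dim genes, and 3 arrays per group limit the precision. In 20 simulations of this comparison with 15526 genes, 200 of them changed, 84.7% of differences of 0.5 were recovered, 3% of 0.2 and 0% of 0.1. The simulated noise came from the moderated variances, and differences of 1 were planted as well (99.6% recovered). The adjusted threshold eases as more genes pass, and the data had 14 called genes. These shares may therefore overstate the recovery in the data, where Nfe2l1 at 0.43 was not called.

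The members, lists and alternatives were chosen with earlier results of these data known. The naming rule took the 6 catalytic genes, up to 3 genes of smallest p per subcomplex, the extreme members, those under the filter and 2 genes per pathway list; further members are named to account for all.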

Additional observations from a re-analysis of the deposited data

How the results depend on the processing

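Alternatives were leaving out each array, other filters, median centring, quantile normalization, other ways of joining probe sets, trend and robust moderation, array weights and terms for the title codes. No paired analysis was possible because the replicate numbers come from accession order and the groups share a single title code. In none of the 16 alternatives was a member called. Dropping an array emptied the list of called genes altogether, except for DHA replicate 2, whose removal gave 24 over all tested genes. Where that list was empty, 0 called members was certain and is no sign of stability. With all 6 arrays kept, the alternatives had 5 to 63 called genes. Of the 30 named members tested, 16 kept their sign in each alternative. Psma5 kept its sign where it was tested, but fell under the filter at the 50th percentile and with the mean of its probe sets, which differ in sign. Members lower at an unadjusted p under 0.05 numbered 0 to 2 on leaving out an array, and the median difference ranged from -0.055 to -0.012. Signs turned on leaving out an array for Psmb5 (-0.013 to 0.056), Psmb6 (-0.027 to 0.061), Psmb7 (-0.084 to 0.013), Psmb10 (-0.059 to 0.14), Psmc1 (-0.14 to 0.015), Psmc6 (-0.10 to 0.0083), Psmd9 (-0.045 to 0.0086), Psmd10 (-0.072 to 0.12), Psme1 (-0.12 to 0.035), Psme2 (-0.11 to 0.054), Psme3 (-0.03 to 0.00029), Psmg2 (-0.11 to 0.039) and Psmg3 (-0.088 to 0.0025). With a term for the leading digit of the title code Psme1 stood at 0.0071 and Psmg2 at 0.0087, and with the mean of its probe sets Psmg2 stood at 0.0092. The cause was not tested. The counts of members with a lower mean, the beta ring without Psmb11, the 2 name-alike genes as members and the pathway genes were added as alternatives after seeing the data.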
